A study of Mus musculus with 11 samples.

Results

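The genes described here are 10 that encode tetraspanins or other proteins commonly used as exosome markers: the tetraspanin genes Cd63, Cd9, Cd81, Cd82 and Cd151, the flotillin genes Flot1 and Flot2, Sdcbp (syntenin-1), Pdcd6ip (ALIX) and Hspa8 (HSC70). Their transcripts were read in the parental HL-1 cells, a mouse line of atrial heart muscle cells that keeps features of cardiomyocytes in culture, on Illumina MouseRef-8 Expression Beadchips. The members are all probes that carry one of these 10 symbols in the platform annotation, with no filter on measured values: 22 of the 25697 probes, from 10 of 16593 gene symbols. The genes were chosen with earlier results of these data known. The arrays analysed here came from untreated control cells (n = 4), cells given TGF-β2 at 10 ng/mL (n = 4, TGF-beta2 in the labels) and cells given PDGF-BB at 100 ng/mL (n = 3, PDGF BB in the labels). All 3 groups were kept for 23 h in serum-free media before harvest. HL-1 is 1 line, so the replicates are cultures of the same cells, and the comparisons measure the spread between cultures and arrays of that line. The vesicles released by the cells were not analysed here, so each value below is a transcript level in the cells and says nothing of the protein or of the vesicle.

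Tetraspanins are small membrane proteins that cross the membrane 4 times and gather integrins, proteases and one another into patches of the membrane. Exosomes form when the membrane of a late endosome buds inwards and the resulting multivesicular body fuses with the cell surface. CD63 is carried mostly by late endosomes and lysosomes, whereas CD9 and CD81 lie mainly at the cell surface. CD82 and CD151 bind integrins, and CD151 links the laminin-binding integrins to the tetraspanin web. Flotillins are scaffold proteins of cholesterol-rich membrane patches and of endosomes. Syntenin-1 ties the tails of syndecans, and that of CD63, to ALIX, which in turn recruits the ESCRT-III proteins that cut the budding vesicle free. HSC70 is the constitutive cytosolic HSP70 chaperone and is often found in vesicles.

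The arrays lay on 2 Beadchips, each of which held arrays of all 3 groups. Chip 1 carried the first 2 control arrays, the first 2 TGF-β2 arrays and PDGF-BB array 1, and chip 2 the rest. Between 11401 and 12455 probes per array had a detection p-value under 0.05. This p-value is the chance of so high a signal if the probe read only background, as negative control beads do. Each probe was read by a median of 34 to 38 beads, and the mean signal before normalization lay between 451 and 846. Of 8 cardiomyocyte markers 7 were on the array and 6 passed on all 11 arrays, among them Myl7, Myh6 and Nppa. Ryr2, the cardiac calcium release channel, was detected on 0 arrays. Of 7 fibroblast markers 6 were detected on 0 arrays, Col1a1, Pdgfra and Postn among them, and of 5 endothelial markers 3 were, including Cdh5 and Vwf, while Pecam1 and Kdr were detected on 6 arrays each. The summed signal of the 7 fibroblast markers was 5.93 to 41.6 on the control arrays, 3.94 to 39.8 with TGF-β2 and 30.05 to 137 with PDGF-BB. Of 5 leukocyte markers on the array, Itgam and Adgre1 were detected on 0 arrays and Ptprc and Cd14 on 2 each, but the T cell receptor subunit Cd3e on 10 of 11, at group means of 56.0 to 70.5. The smooth muscle actin gene Acta2 and Tagln passed on all 11, while Myh11 and Cnn1 were detected on 0.

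The start regions of 3 tetraspanin genes are shown because the arrays parted these genes: Cd81 and Cd63 were detected on every array, and Cd9 on none. Each sequence is the 250 bases before the gene's start, 5′ to 3′ along the gene, from RefSeq on the build GRCm38.p6, with GC boxes (GGGCGG, searched on both strands) in capitals. The windows are chr7:143052500-143052749 on the plus strand, chr10:128909095-128909344 on the plus strand and chr6:125494761-125495010 on the minus strand.
Cd81: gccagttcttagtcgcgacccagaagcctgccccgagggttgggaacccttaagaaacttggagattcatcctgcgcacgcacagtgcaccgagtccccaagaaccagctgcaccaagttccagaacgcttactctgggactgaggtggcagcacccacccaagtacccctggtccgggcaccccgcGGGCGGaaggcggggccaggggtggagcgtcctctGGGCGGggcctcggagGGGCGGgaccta
Cd63: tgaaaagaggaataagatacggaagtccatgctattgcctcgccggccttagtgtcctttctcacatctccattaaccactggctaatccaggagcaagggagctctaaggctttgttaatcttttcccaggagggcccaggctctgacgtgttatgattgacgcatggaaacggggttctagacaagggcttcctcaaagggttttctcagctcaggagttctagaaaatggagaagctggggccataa
Cd9: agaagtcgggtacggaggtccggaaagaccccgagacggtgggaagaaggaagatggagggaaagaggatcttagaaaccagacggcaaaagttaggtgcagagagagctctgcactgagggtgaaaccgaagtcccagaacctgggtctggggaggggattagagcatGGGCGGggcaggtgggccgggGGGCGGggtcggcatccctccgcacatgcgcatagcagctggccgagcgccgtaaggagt
The window of Cd81 held 3 GC boxes, that of Cd9 2 and that of Cd63 0, and 32.7% of all 32851 windows of that length hold at least 1. CCAAT and TATAAA, searched on both strands, occurred in 0 of these 3 windows and in 33.8% and 12.4% of all windows. G and C made up 65.6% of the Cd81 window, 61.6% of the Cd9 window and 48.8% of the Cd63 window, beside a median of 52.4% over all windows. Cd9, undetected, and Cd81, detected throughout, thus each had GC boxes and 16 CpG pairs, and the window of Cd63 had 6. A match of letters in such a window is a description and not a measured site. The sequence table matched 7 of the 10 member genes, all except Flot1, Sdcbp and Hspa8.

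Most of these genes were read clearly in the cells of all 3 groups. The cell filter in the methods of the study asks for a signal intensity above 30 with a detection p-value under 0.05. It was met on all 11 arrays by 18 of the 22 member probes (81.8%), which covered 9 of the 10 genes, compared with 38.7% of all probes. Taken by group, 18 member probes met it on every control array, 18 on every TGF-β2 array and 19 on every PDGF-BB array, beside 41.4%, 40.6% and 41.2% of all probes. The probe that makes the difference was ILMN_2617384 of Flot2, which met it on 3 of 4 control arrays, 3 of 4 TGF-β2 arrays and 3 of 3 PDGF-BB arrays. Only 2 member probes were detected on 0 arrays (9.09%, and 40.1% of all probes), that of Cd9 and ILMN_1258369 of Sdcbp. Signals are given below on the authors' normalized linear scale, on which every array has a median near 25.0. Probes differ in how well they bind, so a level is compared between arrays and not between probes.

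**Figure D1:**
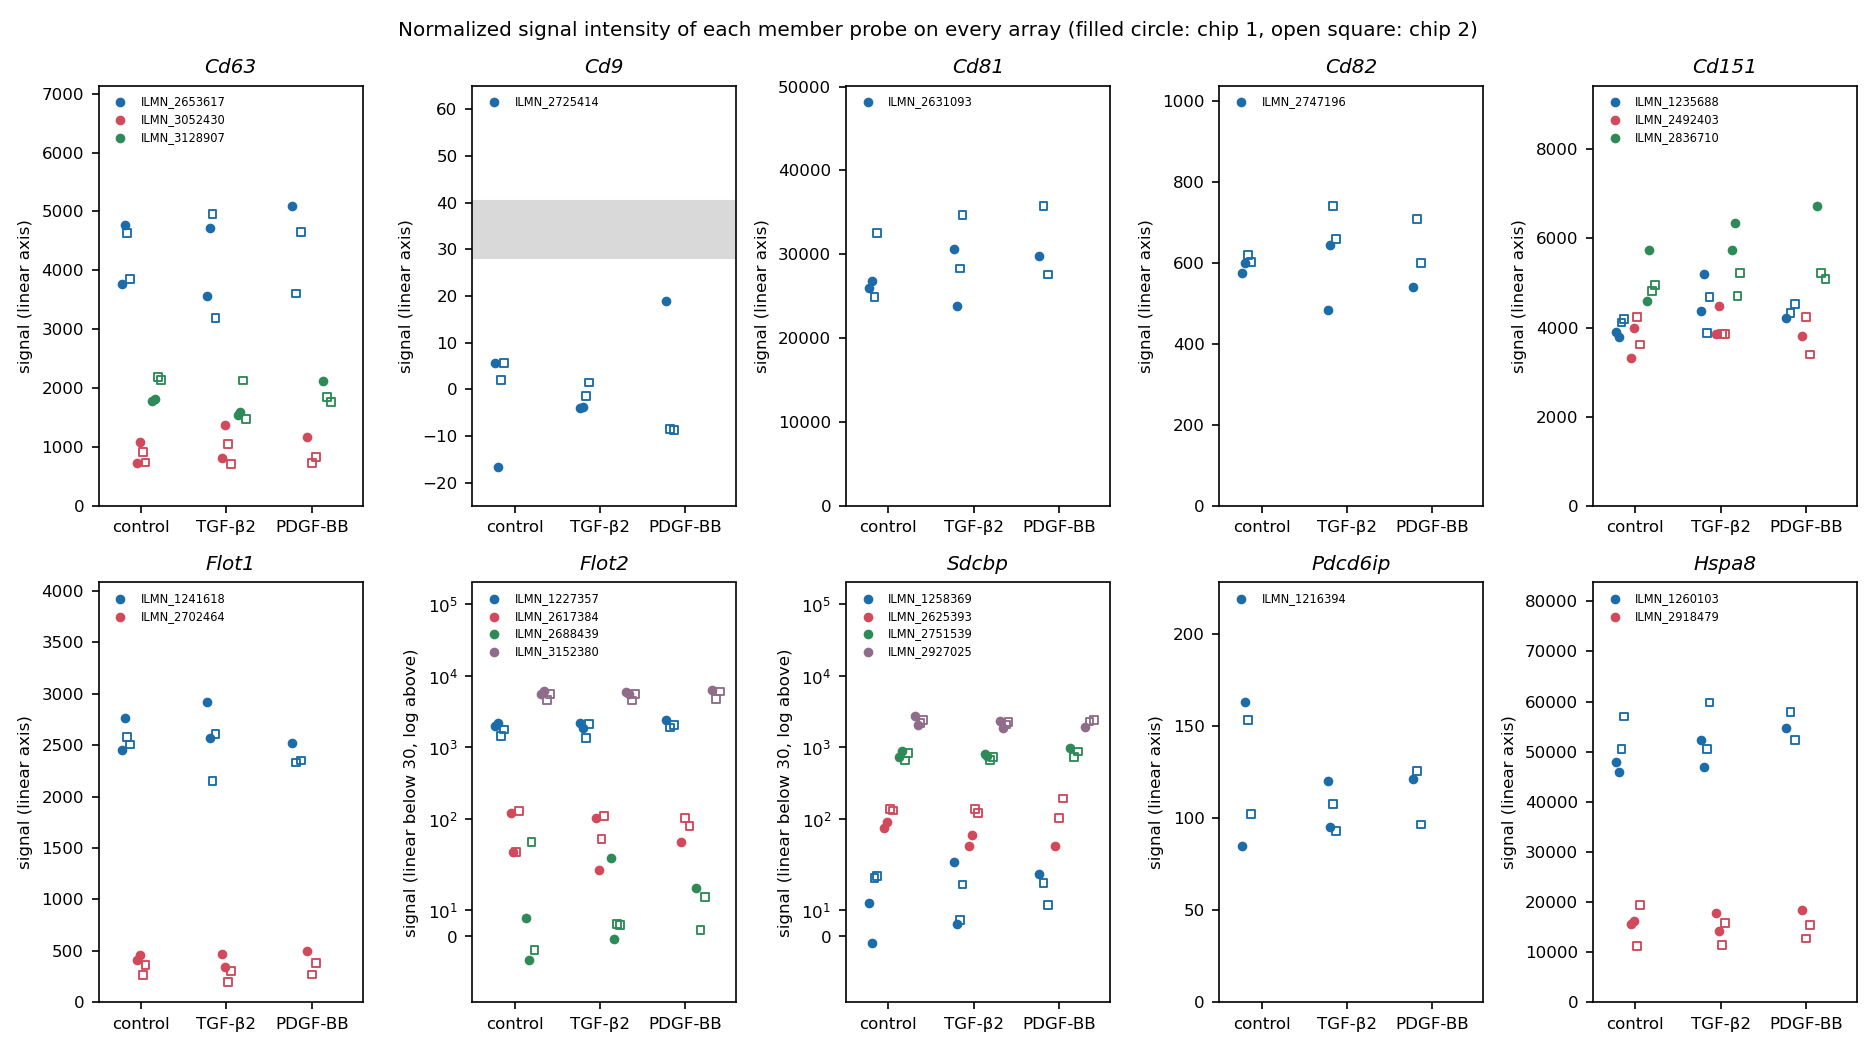
Normalized signal intensity (y axis) of the 22 member probes on each of the 11 arrays, by gene and by group (x axis). Each point is 1 array (filled circles chip 1, open squares chip 2) and each colour 1 probe. The y axes are linear, except those of Flot2 and Sdcbp, which are linear below 30 and logarithmic above. The grey band marks the lowest signal of any detected probe, 28.1 to 40.4 by array, and every Cd9 point lies under it.

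Cd63, the tetraspanin used most often to mark exosomes, was detected by 3 probes on all 11 arrays. The signal of ILMN_2653617 was 3771, 4771, 4630.0 and 3851 on the control arrays 1 to 4, 3568, 4724, 4963 and 3192 on the TGF-β2 arrays 1 to 4, and 5094, 3606 and 4653 on the PDGF-BB arrays 1 to 3. Its mean was 4256 ± 518 (SD, n = 4) in the control group, 4112 ± 864 (SD, n = 4) with TGF-β2 and 4451 ± 764 (SD, n = 3) with PDGF-BB, and the 3 groups overlapped. The second probe, ILMN_3052430, read 729.6, 1078, 919.7 and 737 in the control group, 821, 1366, 1047 and 715 in the TGF-β2-treated group and 1169, 731 and 827 in the PDGF-BB-treated group, and TGF-β2 array 2 was its highest array and TGF-β2 array 4 its lowest. The third probe, ILMN_3128907, read 1789, 1816, 2183 and 2142 in the control group, 1543, 1592, 2131 and 1473 in the TGF-β2-treated group and 2122, 1852 and 1767 in the PDGF-BB-treated group. On this probe 3 of the 4 TGF-β2 arrays lay below every control array, and TGF-β2 array 3 lay among the controls.

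Cd9, the tetraspanin often paired with CD63 and CD81 in vesicle work, was not seen in these cells by its 1 probe, ILMN_2725414. The background-subtracted signal was 5.59, −16.8, 1.94 and 5.58 on the control arrays 1 to 4, −4.08, −3.76, −1.44 and 1.46 on the TGF-β2 arrays 1 to 4, and 18.9, −8.53 and −8.75 on the PDGF-BB arrays 1 to 3. The lowest detection p-value among the 11 arrays was 0.15, on PDGF-BB array 1, and every value lay under the lowest signal of a detected probe on its array, which ranged from 28.1 to 40.4. The probe had 29 to 43 beads per array, within the range of the other member probes. With 1 probe, a transcript too scarce for the array and a probe that does not read it cannot be told apart, and no fold change was computed.

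Cd81, a partner of CD9 at the cell surface, had a strong signal on its 1 probe in every group, with ILMN_2631093 at 25959, 26813, 24959 and 32558 on the control arrays 1 to 4, 30601, 23829.7, 28316 and 34712 on the TGF-β2 arrays 1 to 4, and 29784, 35766 and 27596 on the PDGF-BB arrays 1 to 3. The highest value was on PDGF-BB array 2 and the lowest on TGF-β2 array 2, with group means of 27572 ± 3409 (SD, n = 4), 29365 ± 4541 (SD, n = 4) and 31049 ± 4229 (SD, n = 3) in the same order of groups. Cd82, which restrains cell migration through its integrin partners, read 575, 599.6, 619 and 603 in the control group, 482, 643, 740.2 and 658 in the TGF-β2-treated group and 540.1, 708 and 600.3 in the PDGF-BB-treated group on ILMN_2747196. The 4 control cultures lay within 575 to 619, a coefficient of variation of 2.97%, against 17.1% over the TGF-β2 cultures and 13.8% over the PDGF-BB cultures. The difference in spread was not tested.

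Cd151 was detected by 3 probes on all 11 arrays. ILMN_1235688 read 3902, 3795, 4117 and 4186 on the control arrays 1 to 4, 4382, 5200.4, 3887 and 4684 on the TGF-β2 arrays 1 to 4, and 4212, 4332 and 4530.1 on the PDGF-BB arrays 1 to 3. The 3 PDGF-BB values lay above the 4 control values on this probe, from 4212 upwards against 4186 at most, and the TGF-β2 values spanned both. The other probes did not separate these groups: ILMN_2492403 covered 3322 to 4487 and ILMN_2836710 covered 4594 to 6729 over the 11 arrays, with the groups overlapping on each. PDGF-BB array 1 was the highest array on ILMN_2836710 and the lowest of its group on ILMN_1235688.

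The flotillins were carried by 6 probes, of which 4 met the cell filter on all 11 arrays. ILMN_1241618 of Flot1 ranged from 2149 to 2914 and was among the steadiest members, with a coefficient of variation of 8.26% over the 11 arrays. ILMN_2702464 of Flot1 read 415, 459, 267 and 364 on the control arrays 1 to 4, 467, 344, 201 and 305 on the TGF-β2 arrays 1 to 4, and 495, 272 and 379 on the PDGF-BB arrays 1 to 3. On this probe the lowest array of each group was control 3, TGF-β2 3 and PDGF-BB 2. The same 3 arrays were the lowest of their groups on ILMN_3152380 of Flot2, which read 5603, 6023, 4629 and 5599.8 in the control group, 5933, 5539.8, 4505 and 5494 in the TGF-β2-treated group and 6366, 4727 and 6022 in the PDGF-BB-treated group. ILMN_1227357 of Flot2 had the lowest value of each group on these arrays too, at 1429, 1338 and 1889.7, within a range of 1338 to 2385.

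The remaining Flot2 probes were dim. ILMN_2617384 read 122, 34.97, 34.4 and 129 in the control group, 105, 25.1, 52.5 and 111 in the TGF-β2-treated group and 47.1, 103 and 80.2 in the PDGF-BB-treated group, with a median bead standard error of 25.4% of the signal, and was detected on 9 of 11 arrays. ILMN_2688439 ranged from −9.11 to 47.3 and was detected on 1 array, control 3. Flot2 was thus read clearly by 2 of its 4 probes, all of which carry the same gene symbol.

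Sdcbp, the adaptor between syndecans and ALIX, was carried by 4 probes, of which 3 were detected on all 11 arrays. ILMN_2927025 read 2767, 2061, 2180.1 and 2396 on the control arrays 1 to 4, 2314, 1853, 2082 and 2231 on the TGF-β2 arrays 1 to 4, and 1943, 2292 and 2439 on the PDGF-BB arrays 1 to 3. Each TGF-β2 array was below the control array of its number on this probe, although the groups overlapped. ILMN_2751539 ranged from 654 to 986 with no separation of groups. ILMN_2625393, a dim probe that was detected on all 11 arrays, read 75.3, 90.99, 138 and 131 in the control group, 41.6, 59.5, 139.5 and 122 in the TGF-β2-treated group and 42.6, 103 and 193 in the PDGF-BB-treated group. Its 5 values on chip 1 ran from 41.6 to 91.0 and its 6 values on chip 2 from 102.7 to 193, with no overlap, and each of the 3 groups spanned the gap. ILMN_1258369 stayed at −2.66 to 27.8 and was detected on 0 arrays.

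Pdcd6ip encodes ALIX, which brings the ESCRT-III machinery to the bud, and its 1 probe was dim but detected on all 11 arrays. ILMN_1216394 read 84.6, 163, 153 and 102 on the control arrays 1 to 4, 119.9, 94.99, 108 and 92.99 on the TGF-β2 arrays 1 to 4, and 121, 126 and 96.5 on the PDGF-BB arrays 1 to 3. Control arrays 2 and 3 were the highest and control array 1 the lowest, so the spread within the control group, a coefficient of variation of 30.4%, took in every treated value. The bead standard error was 13.4% of the signal in the median.

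**Figure D2:**
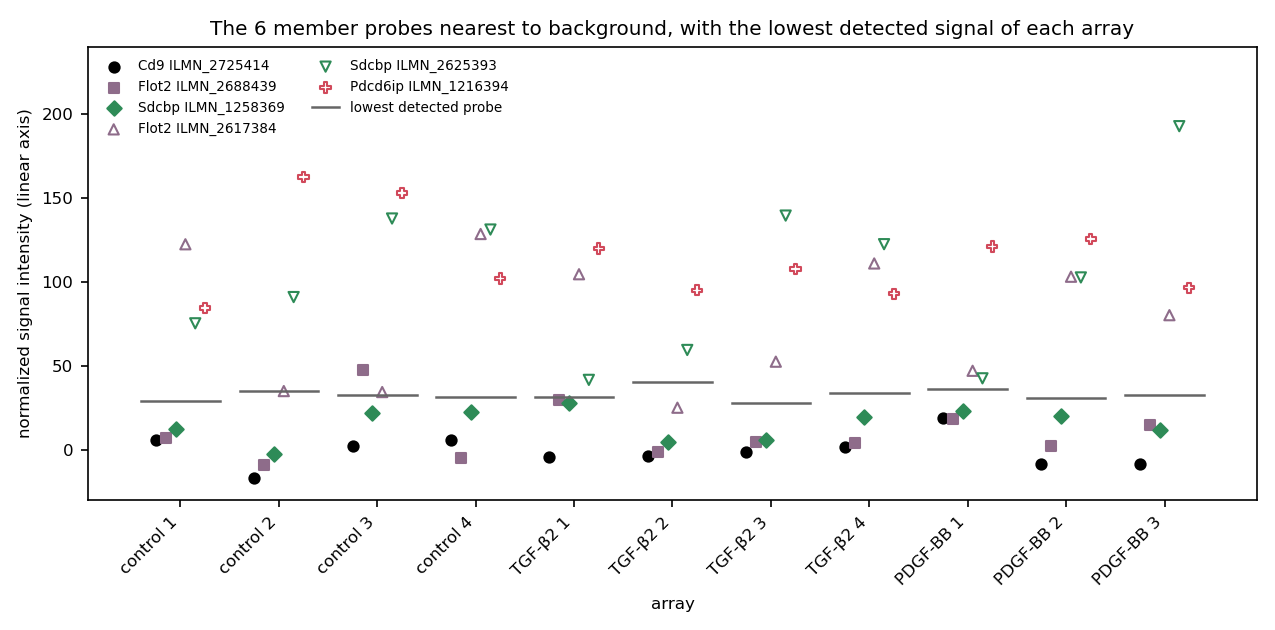
Normalized signal intensity (y axis, linear) of the 6 member probes nearest to background on each of the 11 arrays (x axis). Each symbol is 1 probe and the grey line is the lowest signal of a detected probe on that array, from 28.1 to 40.4. Cd9 and ILMN_1258369 of Sdcbp lie under the line on every array, ILMN_2688439 of Flot2 on all but control 3, and Pdcd6ip lies above it throughout.

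Hspa8, the chaperone gene, was read by 2 probes with strong signals on every array. ILMN_1260103 read 47928, 45976, 50483 and 57028 on the control arrays 1 to 4, 52410.1, 47041, 50527 and 59810.5 on the TGF-β2 arrays 1 to 4, and 54628, 57949.9 and 52271 on the PDGF-BB arrays 1 to 3. Before normalization this probe reached 43760.5 to 61430.4, and the brightest probe of each array 53683 to 62285, so it was read near the top of the scale. ILMN_2918479 read 15716, 16307, 11179.9 and 19364 in the control group, 17829, 14211, 11486 and 15897 in the TGF-β2-treated group and 18398, 12752 and 15431 in the PDGF-BB-treated group. Control 3, TGF-β2 3 and PDGF-BB 2 were again the lowest arrays of their groups on ILMN_2918479, but not on ILMN_1260103, so the 2 probes of Hspa8 ordered the cultures differently.

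The comparison of TGF-β2-treated with control cells asks whether the growth factor moved the transcripts of these vesicle components in the parental cells. None of the 19 member probes that entered the fit was called at an adjusted p-value under 0.05 (limma on all 12894 tested probes, Benjamini-Hochberg), and of all tested probes 0% were called. At an unadjusted p-value under 0.05 there were 0 of 19 members and 261 of all probes (2.02%). The 19 probes belong to 9 genes, since Cd9 and 1 probe each of Flot2 and Sdcbp were detected on too few arrays (at least 3 of 11 were required). The smallest p-value among the members was 0.135 (limma), for ILMN_3128907 of Cd63. Its log2 difference was −0.24 (95% interval −0.57 to 0.09), with TGF-β2 lower in 4 of 4 same-numbered pairs of arrays. It was −0.19 within chip 1 and −0.29 within chip 2. The other Cd63 probes gave −0.06 and 0.16, so the 3 probes of the gene did not share a sign. Among the members with strong signals, Cd81 gave 0.08 (95% interval −0.29 to 0.45) and ILMN_2918479 of Hspa8 −0.07 (95% interval −0.47 to 0.34). For ILMN_1260103 of Hspa8, read near the top of the scale, the value of −0.02 is of limited use, and on the authors' normalized signals it was 0.06. Against control with PDGF-BB the same probe turned from −0.05 to 0.13 on that scale. The 3 Cd151 probes lay at 0.19, 0.08 and 0.13, all above 0 with intervals that covered 0. Pdcd6ip stood at −0.21 (95% interval −0.62 to 0.20) and ILMN_2927025 of Sdcbp at −0.14 (95% interval −0.45 to 0.17), the latter lower in 4 of 4 pairs.

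In PDGF-BB-treated against control cells, which used the same control arrays, 0 of 19 member probes were called, and of all tested probes 0% were called. At an unadjusted p-value under 0.05 there were 0 of 19 members and 412 of all probes (3.20%). Cd81 had the smallest member p-value, 0.281, at 0.21 (95% interval −0.19 to 0.61), and at 0.24 within chip 1 and 0.16 within chip 2. For ILMN_1235688 of Cd151, the probe whose groups did not overlap, the log2 difference was 0.12 (95% interval −0.18 to 0.43), with 0.14 within chip 1 and 0.09 within chip 2. It was the 1 member of 19 (5.26%) with no overlap between these groups, beside 3.65% of all tested probes, so the share of members was near that of the array. The other Cd151 probes stood at 0.00 and 0.17. The Cd63 probes were at 0.07, 0.07 and −0.05, and the last of these was 0.25 within chip 1 and −0.27 within chip 2. ILMN_1227357 of Flot2 stood at 0.20 (95% interval −0.24 to 0.63), and Pdcd6ip at −0.09 (95% interval −0.53 to 0.35).

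Between TGF-β2-treated and PDGF-BB-treated cells 0 of 19 members were called, with 0% of all tested probes called. At an unadjusted p-value under 0.05 there were 0 of 19 members and 662 of all probes (5.13%). The lowest member p-value was 0.230, for ILMN_2751539 of Sdcbp at −0.20 (95% interval −0.55 to 0.15). Cd81 lay at −0.13 (95% interval −0.53 to 0.27), Cd82 at 0.02 (95% interval −0.32 to 0.37) and ILMN_2653617 of Cd63 at −0.13 (95% interval −0.55 to 0.30). Non-overlapping groups were found for 0 of 19 members in this comparison and in that of TGF-β2 with control, beside 5.12% and 1.38% of all tested probes.

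Read over all 19 probes, the log2 differences were small and centred near 0. Their median was −0.02 for TGF-β2 against control, 0.03 for PDGF-BB against control and −0.08 for TGF-β2 against PDGF-BB, and over all tested probes −0.00, 0.01 and −0.02. They ranged from −0.28 to 0.19, from −0.09 to 0.21 and from −0.22 to 0.10 in these comparisons, with 7, 12 and 6 probes above 0. The first 2 medians rest on the same control arrays. What the arrays do bound for most probes is a 2-fold change in the signal read, which is 1 on the log2 scale. The 95% intervals of 18, 19 and 17 of the 19 probes lay wholly within a 2-fold change either way. The exceptions were ILMN_2625393 of Sdcbp in both comparisons of the TGF-β2-treated cells, with intervals down to −1.08 and −1.06, and ILMN_2617384 of Flot2 between the treated groups, with −1.02. The counts include ILMN_1260103 of Hspa8, read near the top of the scale, and dim probes such as that of Pdcd6ip. For these an interval within 2-fold does not bound the change of the transcript.

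**Figure D3:**
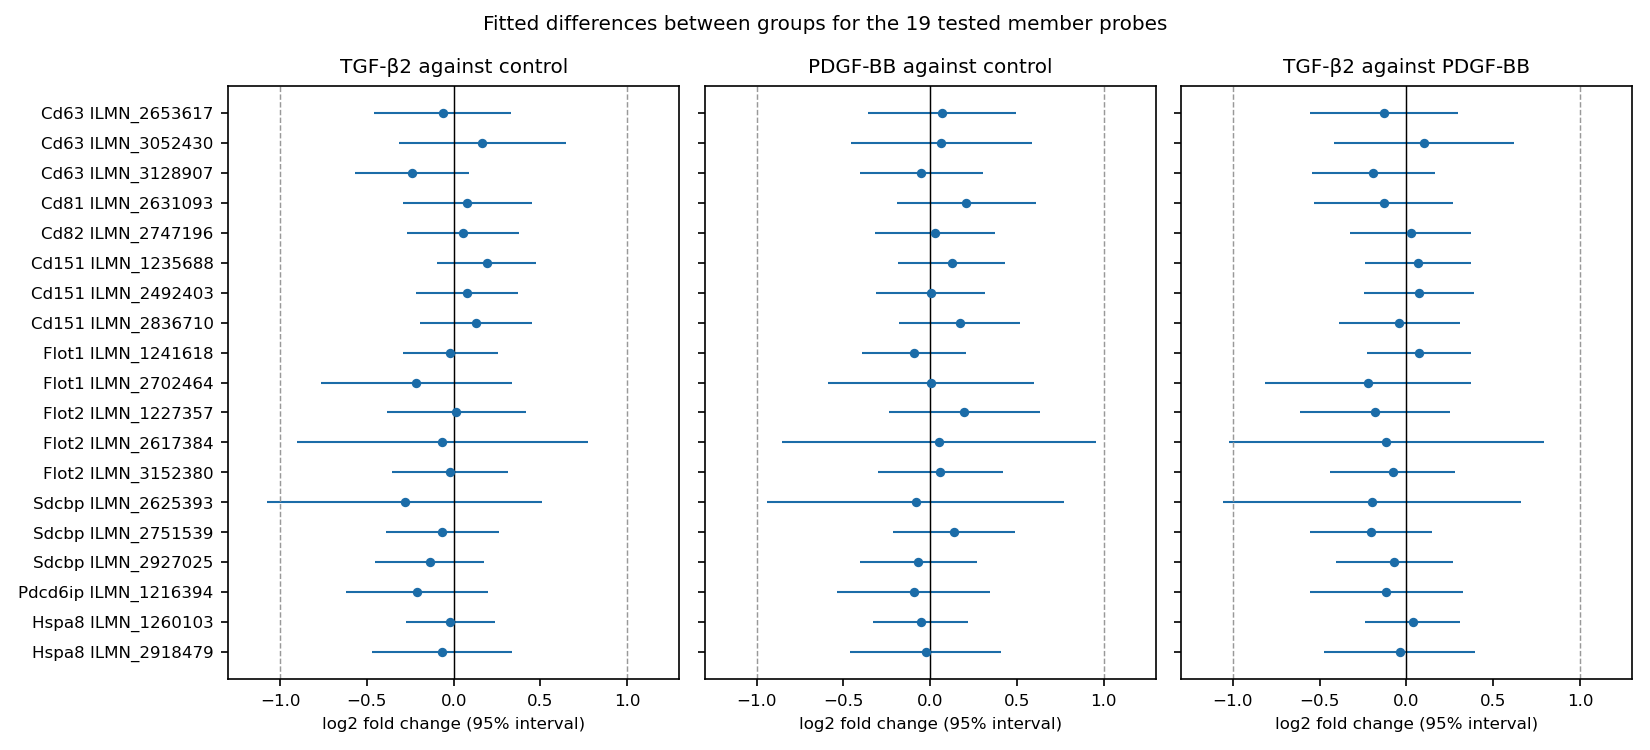
Log2 fold change (x axis) with its 95% interval for the 19 tested member probes (y axis) in the 3 comparisons between groups, from the limma fit on all 11 arrays. Points are fitted differences, the solid line is no difference and the dashed lines mark a 2-fold change. All points lie between −0.28 and 0.21 and every interval covers 0.

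The members varied less, in the median, between cultures of a group than the tested probes as a whole, but the sets were not matched for signal. The median residual standard deviation was 0.20 on the log2 scale over the 19 members and 0.27 over all tested probes, with the narrowest member at 0.08 (ILMN_1260103 of Hspa8, read near the top of the scale) and the widest at 0.67 (ILMN_2617384 of Flot2). The 4 widest were that probe, ILMN_2625393 of Sdcbp (0.63), ILMN_2702464 of Flot1 (0.41) and ILMN_3052430 of Cd63 (0.35). Of these, ILMN_2617384 and ILMN_2625393 were dim.

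For some of these transcripts the fitted differences between the chips were larger than those between treatments. With treatment in the fit, 1 of 19 members (5.26%) was called between chip 2 and chip 1, and 2.75% of all tested probes. At an unadjusted p-value under 0.05 there were 3 of 19 (15.8%) and 24.9% of all. The probe called was the dim syntenin probe ILMN_2625393, higher on chip 2 by 0.97 (95% interval 0.60 to 1.34, adjusted p = 0.0232, limma). The call was lost without control array 2 (adjusted p = 0.0529), TGF-β2 array 2 (0.0614), TGF-β2 array 3 (0.0838) or PDGF-BB array 1 (0.155). The brighter Sdcbp probes stood at −0.19 (ILMN_2751539) and 0.08 (ILMN_2927025) in the same comparison. Against control, the log2 difference of ILMN_2625393 was −0.53 with TGF-β2 and −0.68 with PDGF-BB within chip 1, and −0.03 and 0.07 within chip 2. Chip 1 held 1 PDGF-BB array and chip 2 held 2, so the values with PDGF-BB are descriptions. ILMN_2702464 of Flot1 was at −0.58 between the chips (adjusted p = 0.0643, limma).

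The arrays in positions A to D of chip 2 (control 3, TGF-β2 3 and PDGF-BB 2) had the low values described above. A fit of the 4 blocks of chip and position, chosen after the values were seen, called 0 of 19 members and 0% of all tested probes, with the lowest adjusted p at 0.102. At an unadjusted p-value under 0.05 there were 6 of 19 members (31.6%) and 22.0% of all probes. The 6 included ILMN_2625393 of Sdcbp and ILMN_2617384 of Flot2, whose lowest blocks were on chip 1 (−0.67 and −0.76). On the 3 arrays the mean deviation from the group means was −0.50 for ILMN_2702464 of Flot1, −0.32 for ILMN_1227357 and −0.26 for ILMN_3152380 of Flot2, −0.33 for ILMN_2918479 of Hspa8 and −0.21 for ILMN_2751539 of Sdcbp. The values were 0.04 for ILMN_2653617 of Cd63, −0.01 for Cd81 and −0.14 for ILMN_2836710 of Cd151. Higher on these arrays were ILMN_2625393 of Sdcbp (0.34), Cd82 (0.16), Pdcd6ip (0.16) and ILMN_3128907 of Cd63 (0.15), among others. All 3 groups are among these arrays, so the pattern of low values runs across the treatments. These arrays also had the highest mean signal of their groups before normalization, at 716, 846 and 670. Before normalization ILMN_3152380 of Flot2 read 5977 on TGF-β2 array 3, the highest value of its group. On control array 3 it read 5157, the lowest of its group, and on PDGF-BB array 2 it read 5072, between 4482 and 6393. ILMN_2702464 of Flot1 and ILMN_2918479 of Hspa8 were also lowest in their groups before normalization on control array 3 and PDGF-BB array 2, but not on TGF-β2 array 3. Whether the pattern comes from the chip or from cultures handled together cannot be told apart. Its relation to array brightness and normalization was not tested.

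**Figure D4:**
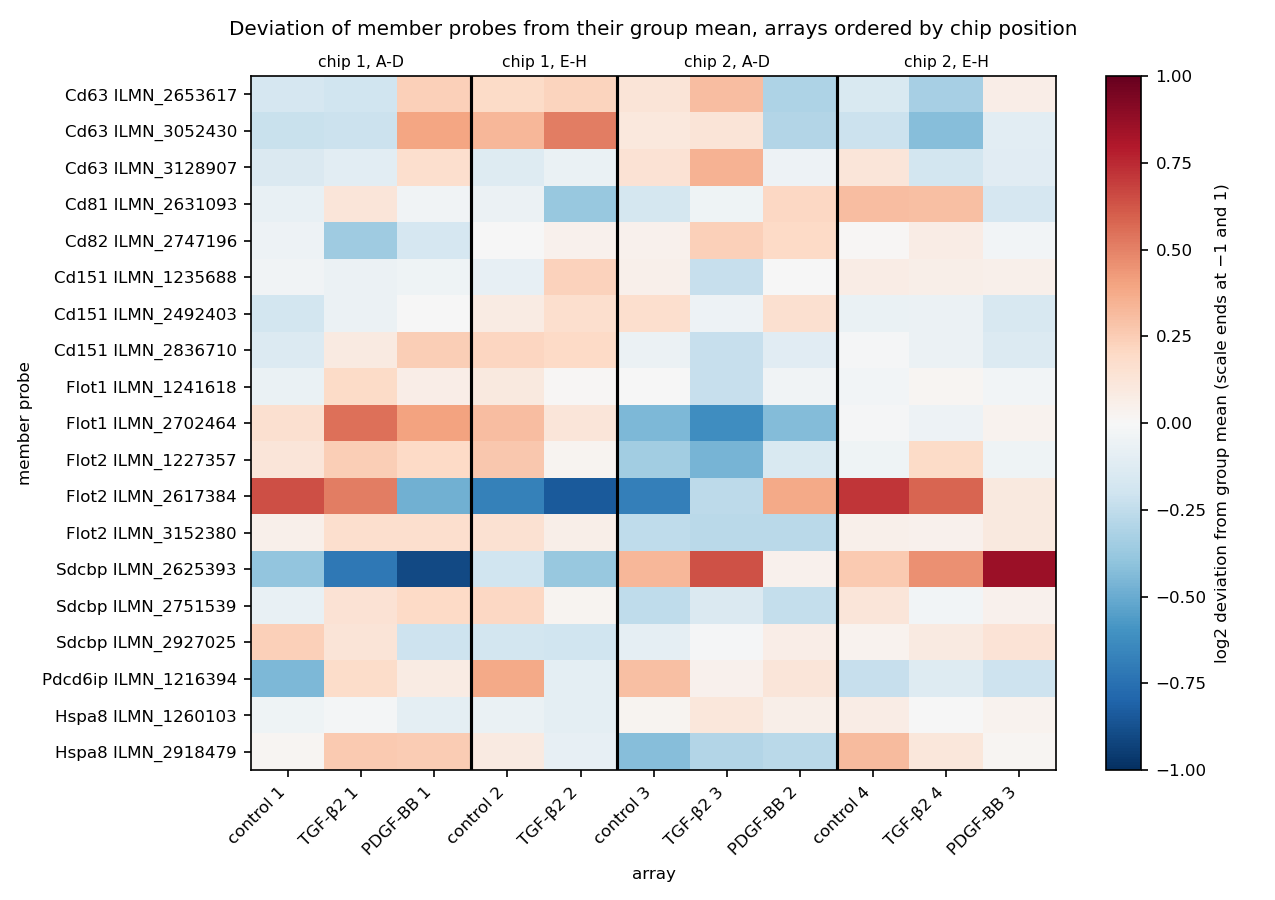
Deviation of the 19 tested member probes (y axis) from their own group mean on the log2 scale (colour, red above and blue below), on each of the 11 arrays (x axis) ordered by chip and by position. Black lines part the 4 blocks of arrays. The block of chip 2 in positions A to D is blue for Flot1 ILMN_2702464 (mean −0.50), for the bright Flot2 probes (−0.32 and −0.26) and for Hspa8 ILMN_2918479 (−0.33). In the same block the mean of Sdcbp ILMN_2625393 was 0.34.

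Probes of the same gene did not always move together. Over the 11 arrays, after the group means were subtracted, ILMN_2653617 and ILMN_3052430 of Cd63 had a Pearson correlation of 0.90, and their correlations with ILMN_3128907 were 0.55 and 0.34. The Flot1 pair stood at 0.79 and the bright Flot2 pair, ILMN_1227357 and ILMN_3152380, at 0.89. By contrast the Hspa8 pair had −0.39, and ILMN_2751539 of Sdcbp had −0.27 with ILMN_2927025 and −0.47 with ILMN_2625393. Across genes, ILMN_2702464 of Flot1 followed ILMN_3152380 of Flot2 at 0.95, and ILMN_2918479 of Hspa8 followed the same Flot2 probe at 0.88. Cd81 ran against the 2 closely tied Cd63 probes, at −0.74 and −0.75. The median was 0.31 over 14 same-gene pairs and −0.04 over 157 pairs of different genes. These are descriptions over 11 arrays that share chips and normalization, and the Flot1, Flot2 and Hspa8 values rest in part on the chip 2 arrays in positions A to D. With the 4 chip and position means removed as well, the value of ILMN_2702464 of Flot1 with ILMN_3152380 of Flot2 was 0.84, that of the bright Flot2 pair was 0.31 and that of ILMN_2918479 of Hspa8 with ILMN_3152380 was 0.51. The Flot1 pair then stood at 0.91 and the Hspa8 pair at 0.42, and the 3 Cd63 pairs lay between 0.81 and 0.93.

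The transcripts closest to Cd63 in this sense were those of Mms22l (0.97), a DNA repair factor, Hid1 (0.96), which takes part in dense-core vesicle formation, and Eif5a (0.96), a translation factor. In all, 47 of the 12894 tested probes had a correlation over 0.9 with ILMN_2653617, and nothing is read from the identity of the 3.

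The rest of the family and its partners were read from gene lists that were set by function. Of 26 other tetraspanin genes 24 were on the array, 7 met the cell filter on all 11 arrays (Tspan3, Tspan9, Tspan12, Tspan14, Tspan17, Tspan31 and Rom1) and 13 were detected on 0 arrays, among them the leukocyte tetraspanins Cd37 and Cd53. Of the 10 tested, 0 were called in each comparison in either direction. Tspan4 and Tspan33 had the lowest p-values. Tspan4, detected on 8 of 11 arrays, was at −0.58 between TGF-β2 and PDGF-BB (unadjusted p = 0.0480, adjusted p = 0.967, limma). Tspan33 was at −0.47 between PDGF-BB and control, but was detected on 6 of 11 arrays, with PDGF-BB values of 19.5 to 35.1, near background. It entered the fit largely through the other groups, so this difference is not given as a test. Both were dim, with group means of 31.2 to 59.3 and 25.9 to 48.6.

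Among 13 partners of tetraspanins 12 were on the array and 0 of 10 tested were called in any comparison. Mmp14, the membrane-bound matrix metalloprotease that CD151 and CD63 bind, had the smallest p-value of the partners. Its log2 difference was 0.59 between TGF-β2 and PDGF-BB (unadjusted p = 0.00201, adjusted p = 0.755, limma) and its 4 TGF-β2 values, from 1112 upwards, lay above the 3 PDGF-BB values, of 933 at most. Cd44, a hyaluronan receptor, was read near background, at 1.39 to 25.9 on the control arrays, 26.2 to 36.4 with TGF-β2 and 28.7 to 33.3 with PDGF-BB. It was detected on 4 of 11 arrays, none of them a control array, so it entered the fit only through the treated groups, and its difference from control is not given as a test. The integrin subunit Itgb1 stood at −0.40 between TGF-β2 and PDGF-BB (unadjusted p = 0.0348, adjusted p = 0.945, limma).

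The syndecan, syntenin and ALIX pathway had 16 listed genes on the array, of which 10 met the cell filter on all 11 arrays, including the syndecans Sdc2 and Sdc4, Arf6, Tsg101, Chmp4b and Vps4a. Of the release machinery 13 of 17 did, including Rab27a, Rab11a, Rab35 and Vamp7. Of 35 other common vesicle proteins 31 were on the array and 27 did, including Anxa2, Lamp1, Mfge8 and Gapdh. In each of these lists 0 genes were called in any comparison, of 11, 14 and 28 tested. Tsg101, an ESCRT-I subunit, was at −0.26 with TGF-β2 and −0.23 with PDGF-BB against control. Smpd3, the neutral sphingomyelinase of ESCRT-independent budding, was at 0.44 and 0.02, and Rab27a, which docks multivesicular bodies, at 0.21 and −0.02. Cav2 stood at 0.48 and 0.17 and was also near background, with group means of 19.6 to 40.8 and detection on 5 of 11 arrays. Dnajc5, a co-chaperone of HSC70, was at 0.43 between TGF-β2 and PDGF-BB (unadjusted p = 0.0307), with adjusted p = 0.928 in limma.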

How the data were processed

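RNA of HL-1 cells was read on 11 arrays of Illumina MouseRef-8 Expression Beadchips, grouped by the labels. For each probe and array the authors deposited the background-subtracted, non-normalized signal intensity, its bead standard error, a count of beads and a detection p-value. They also deposited a normalized intensity, made with the cubic spline algorithm of Beadstudio according to the methods, while the processing notes name GenomeStudio. Levels were given on the normalized scale.

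Differences were computed in R 4.3.3 with limma 3.58.1. Background correction by normexp on the detection p-values, an offset of 16, quantile normalization and log2 were applied with neqc. The test took in 12894 probes, those detected (p under 0.05) on 3 or more of the 11 arrays, with 1 mean per group, no block, lmFit and eBayes, and Benjamini-Hochberg adjustment over all of them at 0.05. Intervals come from the same fit. The fit was tested on simulated data. Labels do not say that the arrays came from separate days or passages, so p-values measure the spread between these arrays. Figures used Python 3.11.15, pandas 2.3.3 and matplotlib 3.10.9.

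Same-numbered control and TGF-β2 arrays, by the numbers in the labels, correlated in their deviations from the group means over all tested probes at 0.19, 0.40, 0.50 and 0.37, each over 0.1, so these numbers pair the arrays. The PDGF-BB arrays did not pair with the control (−0.14, −0.44 and 0.20) or TGF-β2 arrays (0.18, −0.33 and 0.33). The fit of chip and position was added after the values were seen.

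Named genes were every member probe and the 3 genes most correlated with Cd63. From the other lists (1 probe per gene, that of highest mean signal) examples were named for detection. Differences were given for some of the up to 3 genes of lowest p in a list. Symbols came from the platform annotation (1 symbol for 23978 probes, none for 1719). The members and lists were chosen with earlier results of these data known. Alternatives were other normalizations, offsets and filters, replicate and chip blocks, each chip alone, array weights and leaving out each array. Not analysed here were the exosomes and the fourth PDGF-BB cell sample of the design text.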

Additional observations from a re-analysis of the deposited data

Results flagged for a closer look

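On ILMN_2492403 of Cd151, TGF-β2 array 2 read 4487, far from the other 3 arrays of its group, which lay between 3849 and 3865. The gap was 0.975 of the range of the group, above Dixon's 95% critical value for 4 arrays. It was 1 of 36 groups of 4 arrays examined, and chance gives about 1 in 20 (5%). The same array was also the highest of its group on ILMN_1235688 (5200.4) and ILMN_2836710 (6356) of Cd151.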

How the results depend on the processing

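Member calls stayed at 0 in the comparisons between groups under every alternative run, with the lowest adjusted p at 0.51. This includes the replicate block and the block of chip and position, each with 0 members called in each of the 3 comparisons, so neither changed a call. The replicate numbers of PDGF-BB arrays 2 and 3 do not follow chip position. In the PDGF-BB comparisons the replicate block thus joined arrays from different positions. Over all probes 0 were called, or 1 for PDGF-BB against control without control array 4. The numbers at an unadjusted p-value under 0.05 (261, 412 and 662) ran from 162 to 773, 231 to 1127 and 336 to 1227, with 773 under the replicate block for TGF-β2 against control. Of 1365 member values under alternatives, 1242 kept their sign, 123 changed it and 1356 lay within 1 SD of the reported value. Some alternatives, such as leaving out an array of the group not compared, cannot change a fitted difference. These counts therefore do not measure how stable the values are. The count of 18 member probes that met the cell filter on all 11 arrays stayed within 1.5 times under other thresholds. Members reached an unadjusted p-value under 0.05 in 3 instances: Cd63 ILMN_3128907 for TGF-β2 against control without TGF-β2 array 3 (−0.36), and Sdcbp ILMN_2625393 for PDGF-BB against control on chip 1 alone (−0.68, with 1 PDGF-BB array) and, with array weights, between the treated groups (−0.81). The count called between chips was 1, and 2 with an offset of 50 and 2 with only probes detected on all 11 arrays, and from 0 to 2 when single arrays were left out. By chip and position, 2 members were called with an offset of 50 in place of 0. The causes were not tested. Groups of 3 and 4 arrays, and signals near background for the dim probes, limit what could be seen.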
